A study of Glycine max with 22 samples.

Results

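The 150 soybean probe sets described here had lower signal in leaves of bud-removal plants than in leaves of untreated plants at each of the 3 ages at which both were sampled. They were chosen by measured values. Every soybean probe set with 1 gene symbol and a signal over 22 on at least 3 arrays was ranked by the smallest of its 3 differences between untreated and treated group means on the log2(signal + 1) scale, and ranks 1 to 150 were taken. Symbols that begin with HPT, BCH, VPE, SGR, DREB, GST, NAC, WRKY, bZIP or MYB had been left out of the ranking. Of 61170 features on the array, 37593 were for soybean, 30645 passed the signal filter and 7447 entered the ranking. The 150 members belong to 130 genes. Because the 3 same-age differences picked the members, they are given below as a description. Where a count of members past limma's threshold is printed for them, it stands beside the share of all probe sets and nothing is read from it.

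Transcripts of mature soybean leaves were measured on 22 arrays of the Affymetrix soybean design, which report 1 signal per probe set. All plants grew in growth chambers. In treated plants every terminal and axillary bud was pinched off each day for 15 days from a plant age of 30 days, and shoots then regrew for 15 days. The treated groups were D15 (age 45 days, end of bud removal), R20 (age 50 days, 5 days of regrowth) and R30 (age 60 days, 15 days of regrowth), with 3 arrays each. Untreated plants of the same ages gave C15, C20 and C30 (3 arrays each), and C0 (4 arrays) came from untreated plants of 30 days at the start of the course. The labels give neither a cultivar nor the number of plants behind a sample, so the spread between arrays of a group may be partly technical.

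A mature leaf is a source: it exports sugars and amino acids to growing tips, flowers and pods. As a leaf ages it takes apart proteins and membrane lipids and sends the carbon and nitrogen out, and taking away the organs that receive them is known to alter this course. The glyoxylate cycle, which lets a cell turn acetyl units from fat into organic acids, runs in oil-storing seedlings and comes on again in senescing leaves. Asparagine, made by asparagine synthetase, is a main form in which legumes move nitrogen.

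The soybean median signal was 57.1 to 81.3 on 21 arrays and 38.2 on R20 replicate 3, where the ratio of 3' to 5' signal of an actin control was 136 against 2.29 to 8.37 elsewhere. A second actin ratio was 8.28 on that array and 5.32 to 56.1 on the others. Each array had been scaled to a trimmed mean near 125, and a floor, the 95th percentile of the oomycete and nematode probe sets that share the chip, lay between 11.8 and 22.1. The ratio of a pair of spiked hybridisation controls, bioC to bioB, ran from 2.39 to 2.89 on the 6 arrays of R20 and C20 and from 0.948 to 1.20 elsewhere, so an age of 50 days and that difference cannot be told apart. All 7 leaf markers (light-harvesting, photosystem, cytochrome b6f and Rubisco activase genes) were above the floor on every array, whereas 5 of 9 nodule, 4 of 6 seed and 2 of 3 flower markers were above it on none. The nodule markers ENOD40B and N-26 were above it on 16 and 8 of the 22 arrays, and the rest on at most 4. ENOD40B averaged 40.4 in D15 and 33.3 in C15, 56.2 in R20 and 13.0 in C20, and 32.8 in R30 and 11.8 in C30. The summed leaf marker signal was 29348 to 32588 in R20 against 15226 to 20239 in C20. Its ranges overlapped between D15 and C15 and between R30 and C30. The summed signal of 3 genes listed as markers of dividing tissue came nearly all from histone H4, so it describes H4. It was 6104 to 8637 in D15 against 842 to 5441 in C15. It was 4703 to 7488 in R20 against 1105 to 2738 in C20, and 5342 to 5835 in R30 against 258 to 4883 in C30. POLD1, a DNA polymerase subunit above the floor on all arrays, averaged 37.1 in D15 and 38.5 in C15, 26.8 in R20 and 43.0 in C20, and 36.4 in R30 and 39.9 in C30, and CCS52 was above the floor on 2 arrays. The part of H4 in the results was not tested.

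Over the 150 members, the median difference from untreated leaves of the same age was -1.88 (log2) in D15, where the median of all tested probe sets was -0.04. It was -2.05 in R20 (all tested: -0.29) and -1.69 in R30 (all tested: 0.05). The smallest difference that the ranking let in was -1.04 in D15, -1.05 in R20 and -1.04 in R30. In R20 76 members had their largest difference, in D15 41 and in R30 33. The order of the ages moved with the scaling. With median centring the member median was -1.87 in D15, -1.57 in R20 and -1.83 in R30, so nothing is read from these counts. In leaf RNA as a whole, fewer cells that express a gene and less RNA per cell cannot be told apart. The 3 members at the lower edge of the list (SIK1, LOC100801375 and LOC100793275) had a smallest difference of -1.04 each, and the 3 probe sets just outside it (LOC100803601, LOC100306610 and LOC100806243) had -1.03 each.

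All 3 D15 arrays lay below all 3 C15 arrays for 76 members, which was so for 7.68% of all tested probe sets. R20 lay below C20 in this way for 117 members (27.6% of all tested) and R30 below C30 for 104 members (9.34% of all tested). At all 3 ages 44 members showed no overlap (1.44% of all tested), and 10 members overlapped at every age. Limma's moderated test at an adjusted p under 0.05 called 5 members lower in D15 (0.0914% of all tested), 75 in R20 (12.3%) and 16 in R30 (0.441%). The balance of calls over all tested probe sets moved with the scaling. In R20 2208 were higher and 3764 lower as deposited, against 3814 higher and 1774 lower with median centring, which put the median of all tested at 0.19. In D15 48 were higher and 28 lower as deposited, against 33 and 12 with median centring. Without C15 replicate 1, which lay near the treated arrays, 142 members showed no overlap in D15 and 85 showed none at all 3 ages. In D15 72 members were then called lower, but lower calls over all tested probe sets also rose, from 28 to 521. Without R20 replicate 3 the R20 counts were 130 with no overlap and 50 called. A lack of overlap is easier to reach with fewer arrays. No share of all tested is given for these no-overlap counts or R20 calls, so nothing is read from them.

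The median member signal per array was 64.5, 55.4 and 65.4 in D15 against 87.4, 547 and 408 in C15. In R20 it was 85.8, 94.1 and 74.9, against 430, 452 and 418 in C20. In R30 it was 98.7, 109 and 129, against 548, 540 and 362 in C30. All 9 treated arrays stood below 8 of the 9 untreated arrays of the same ages, and the exception was C15 replicate 1, at 87.4. On no array of the group above the floor were 16 members in D15, 12 in R20 and 6 in R30, and none in C15, C20 or C30. The ranking picked members with low treated and high untreated means among probe sets past the signal filter. A contrast between the arms in these medians and counts therefore follows largely from the choice of members. No share of all tested is given for the counts, so nothing is read from them.

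**Figure D1:**
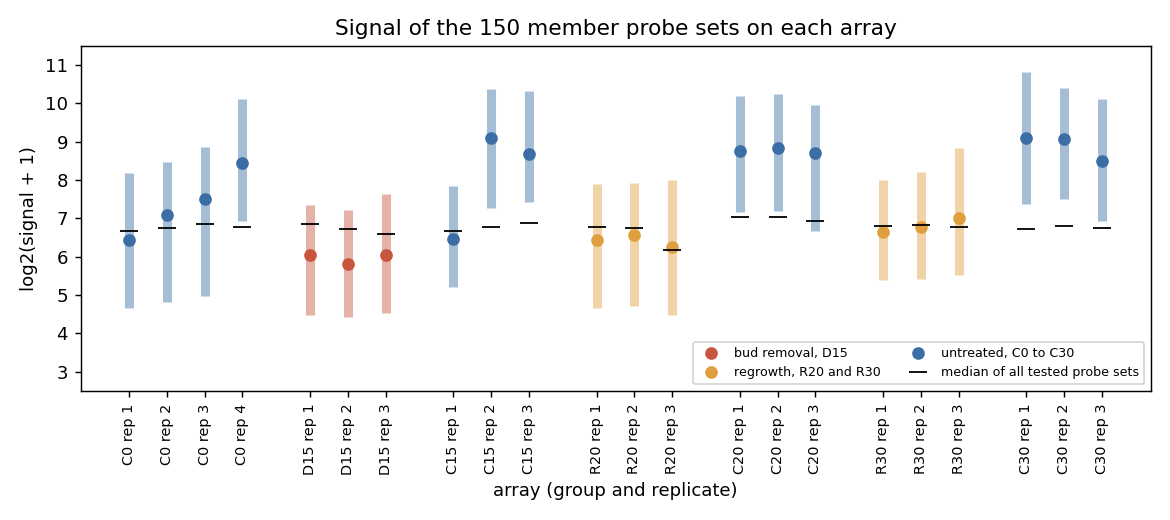
Signal of the 150 members on each of the 22 arrays, as log2(signal + 1). Dots are medians, bars run from the lower to the upper quartile over members, and black ticks are the medians of all tested probe sets; C15 replicate 1 lies with the treated arrays, and C0 replicate 4 lies highest among the C0 arrays.

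Rank 1 belonged to ICL1, isocitrate lyase, and rank 3 to MS, malate synthase, the 2 enzymes particular to the glyoxylate cycle. ICL1 (rank 1) had signals of 2.92, 0.661 and 4.27 in D15 against 6.84, 5455 and 266 in C15. In R20 they were 0.728, 0.249 and 1.38, against 1913, 670 and 676 in C20. In R30 they were 115, 81.3 and 1.45, against 5333, 1725 and 182 in C30. The arms did not overlap at any age, but the C15 arrays ran from below the floor to the highest ICL1 value of the series. C15 replicate 1 and every D15 array lay under the floor, so that array cannot be told apart from D15. Since no D15 and no R20 array was above the floor, only bounds hold. ICL1 was at least 13.2-fold lower in D15 than in C15, where 2 of the 3 arrays were above the floor. It was at least 53.5-fold lower in R20 than in C20. Its R30 minus C30 difference was -5.38 ± 2.02 (SE, log2). A second ICL1 probe set (rank 5) gave 65.1, 31.9 and 43.3 in R30 against 3080, 953 and 310 in C30, the same order of groups.

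MS (rank 3) had signals of 7.69, 19.2 and 9.47 in D15 against 42.1, 6196 and 4354 in C15. In R20 it had 13.3, 14.1 and 140, against 4705, 4457 and 3454 in C20. In R30 it had 92.0, 242 and 894, against 4891, 6140 and 3878 in C30. No treated array reached an untreated one of its age, and the differences were -6.42, -7.06 and -4.16 ± 1.77 (SE). MS lay under the floor on D15 replicates 1 and 3 and on R20 replicates 1 and 2, so the sizes in D15 and R20 are uncertain. All 3 R30 values of MS exceeded the 3 D15 values. In C0 it gave 8.76, 23.6, 181 and 3748, so 1 of the 4 youngest leaves was already at the level of the older untreated ones.

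The other tested genes of fat use are no members, so a smaller smallest difference than in ICL1 and MS follows from the ranking. In a list of 5 genes chosen with earlier results known (ICL1, MS, SDP1-3, ACSL2 and PEX14) 4 were tested. Of the 2 that are no members PEX14 was called lower in R20 (all tested: 12.3% lower). PEX14, a docking protein of peroxisomes, the compartment of fat breakdown, gave 183, 204 and 167 in R20 against 378, 504 and 546 in C20, a difference of -1.35 ± 0.27 (SE; limma adjusted p = 0.00388). SDP1-3, named for a triacylglycerol lipase, averaged 97.9 in R20 and 183 in C20 and did not pass (adjusted p = 0.707).

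Asparagine synthetase AS2 followed another course, low in treated leaves but below C0 in older untreated leaves too. Its better ranked probe set (rank 40) had signals of 197, 81.8 and 46.3 in D15 against 326, 607 and 3634 in C15. In R20 they were 106, 95.4 and 39.7, against 263, 211 and 4759 in C20. In R30 they were 166, 157 and 44.6, against 56.6, 738 and 1387 in C30. The arms overlapped at R30 through C30 replicate 1, and replicate 3 held the highest value of every later untreated group. The C0 arrays gave 1400, 3120, 2681 and 5785, all above the 9 treated arrays and above 7 of the 9 later untreated ones, the exceptions being C15 and C20 replicate 3. The difference from C0 was -4.96 in D15, -5.26 in R20 and -4.75 in R30, against -1.68 in C15, -2.16 in C20 and -2.88 in C30 (SE 1.10 each).

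Of 11 genes of asparagine, glutamine and amino transfer, AS2 was the only member, and of the other 10 limma called 1 higher and 2 lower in R20 (all tested: 7.21% higher, 12.3% lower). GS1-GAMMA, a cytosolic glutamine synthetase, gave 306, 271 and 308 in R20 against 75.8, 48.5 and 20.3 in C20, a rise of 2.77 ± 0.62 (SE; limma adjusted p = 0.00696). GS1alpha, of the same enzyme family, gave 177, 157 and 81.3 in R20 against 728, 705 and 684 in C20 and fell by 2.42 (SE 0.49, adjusted p = 0.00404). ALAAT1, an alanine aminotransferase, gave a difference of -1.01 ± 0.30 (SE, adjusted p = 0.0258), and its call was lost with either other scaling (adjusted p = 0.214 with median centring, 0.0956 with quantile normalization), without R20 replicate 3, C20 replicate 2 or C20 replicate 3, and in a fit of the R20 and C20 arrays alone. The 2 called glutamine synthetases, GS1-GAMMA and GS1alpha, thus went opposite ways in R20, without overlap between the arms. Their differences were 1.545 and -0.62 in D15 and 0.66 and -1.675 in R30, where none was called. The list holds 2 more, neither called in R20: GS-2 at 0.85 (limma adjusted p = 0.0783) and GS1GAMMA2 at -1.26 (adjusted p = 0.334).

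CIF1, an inhibitor of cell wall invertase, the enzyme that splits sucrose outside the cell, was measured by 2 members. The first (rank 35) had signals of 24.1, 37.6 and 25.3 in D15 against 45.6, 561 and 244 in C15. In R20 it had 28.5, 39.6 and 19.0, against 340, 380 and 491 in C20. In R30 it had 109, 102 and 66.4, against 634, 284 and 228 in C30. There was no overlap at any age, and the 3 R30 arrays all lay above the 3 D15 and the 3 R20 arrays. The differences were -2.66, -3.80 and -1.92 ± 0.78 (SE). The second CIF1 probe set (rank 62) gave -1.96, -2.42 and -1.52 ± 0.74, with D15 and C15 overlapping.

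SWEET13, of a family of sugar transporters, was a member on signals near the floor: 5.62, 3.01 and 7.53 in D15 against 14.3, 4.85 and 26.9 in C15, and 0.387, 11 and 1.15 in R30 against 4.17, 7.28 and 56.8 in C30. No treated array was above the floor, and the untreated mean was too low for a bound, so no fold is given. Of 9 tested genes of sugar transport and invertase control, 7 are no members. Of these SWEET42 was called higher in R20 (all tested: 7.21% higher). SWEET42 gave 545, 600 and 552 in R20 against 263, 341 and 363 in C20, a rise of 0.82 ± 0.25 (SE; limma adjusted p = 0.0291). Its call was lost without C20 replicate 1 or 2 or R20 replicate 2 or 3, and in a fit of those groups alone (adjusted p up to 0.118).

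Several members are regulators. The prefixes left out of the ranking act on symbols, and 4 member genes with LOC symbols, measured by 5 members, have another name in RefSeq, which is why they are named here. LOC732579 is listed as DREB2 and GmERF023, a protein of the family that binds drought-responsive promoter elements. Its first probe set (rank 18) gave 45.4, 31.8 and 55.2 in D15 against 170, 368 and 165 in C15. It gave 26.7, 31.4 and 74.8 in R20 against 342, 384 and 433 in C20. It gave 69.2, 51.6 and 104 in R30 against 661, 345 and 299 in C30. The arms stood apart at all 3 ages, by -2.31, -3.24 and -2.49 ± 0.57 (SE), and a second probe set (rank 50) by -2.42, -2.82 and -1.69 ± 0.67.

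LOC100127361, listed as bZIP84, a leucine-zipper transcription factor, gave 153, 174 and 562 in D15 against 769, 3307 and 1448 in C15. Its differences were -2.64 in D15, -1.35 in R20 and -1.69 in R30 (SE 0.57), with no overlap at any age. LOC100170711, listed as NAC17 and GmNAC019, a NAC transcription factor, was above the floor on no treated array. It was at least 2.83-fold lower in R20, where it gave 8.63, 1.91 and 1.45 against 17.0, 17.6 and 386 in C20. As with AS2, most of its C20 signal sat on replicate 3.

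SCOF-1, a cold-inducible zinc finger protein of soybean, gave 103, 72.8 and 145 in R30 against 439, 238 and 92.8 in C30. Its arms overlapped at all 3 ages, each time through a low replicate 3 control. MAT1, for which RefSeq lists the names dehydrin and LEA-D11, belongs to a class of proteins that protect drying cells. It gave 23.2, 17.6 and 3.36 in R20 against 45.2, 80 and 557 in C20, a difference of -3.35 ± 1.06 (SE), with replicate 3 highest among the controls. The arms overlapped at the other ages, with 26.4, 28.2 and 6.73 in D15 against 16.2, 36 and 180 in C15, and 31.3, 21.4 and 42 in R30 against 29.1, 108 and 458 in C30. With 1 array left out its smallest difference was -0.46 in place of -1.41. WNK13, of the WNK protein kinases, gave 129, 148 and 54.2 in R20 against 207, 170 and 327 in C20. Its arms overlapped at the other ages, with 31.3, 16.4 and 78.8 in D15 against 9.62, 129 and 465 in C15, and 40, 94.5 and 100 in R30 against 88.6, 280 and 307 in C30. With 1 array left out its smallest difference was -0.07 in place of -1.15. Of the other 4 WNK genes tested, WNK1 was called lower in R20 (all tested: 12.3% lower). It gave 149, 161 and 109 against 384, 556 and 315 in C20 (-1.55 ± 0.42 SE, limma adjusted p = 0.0184). That call was lost with median centring (adjusted p = 0.0804) and without C20 replicate 2 or R20 replicate 3.

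BFT belongs to the family of the flowering signal FT and its antagonist TFL1. It was faint: 6.83, 9.91 and 6.17 in D15 against 21.3, 48.1 and 37.8 in C15, and 15.1, 23.3 and 17.4 in R30 against 59.9, 45.8 and 28.4 in C30. No treated array overlapped a control of its age, and BFT was at least 2.04-fold lower in D15. C15 replicate 1 and every D15 array lay under the floor for BFT, so that array cannot be told apart from D15. Of 4 tested genes of flowering and the TFL1 family, 3 are no members. Of these FT1A was called higher in R20 (all tested: 7.21% higher). It gave 35.9, 97.8 and 64.2 against 6.44, 10.6 and 4.37 in C20. As no C20 array of FT1A was above the floor, it was at least 4.63-fold higher in R20 (limma adjusted p = 0.0230). Leaving out any C20 array, R20 replicate 2 or R20 replicate 3 ended the call (adjusted p up to 0.0632).

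**Figure D2:**
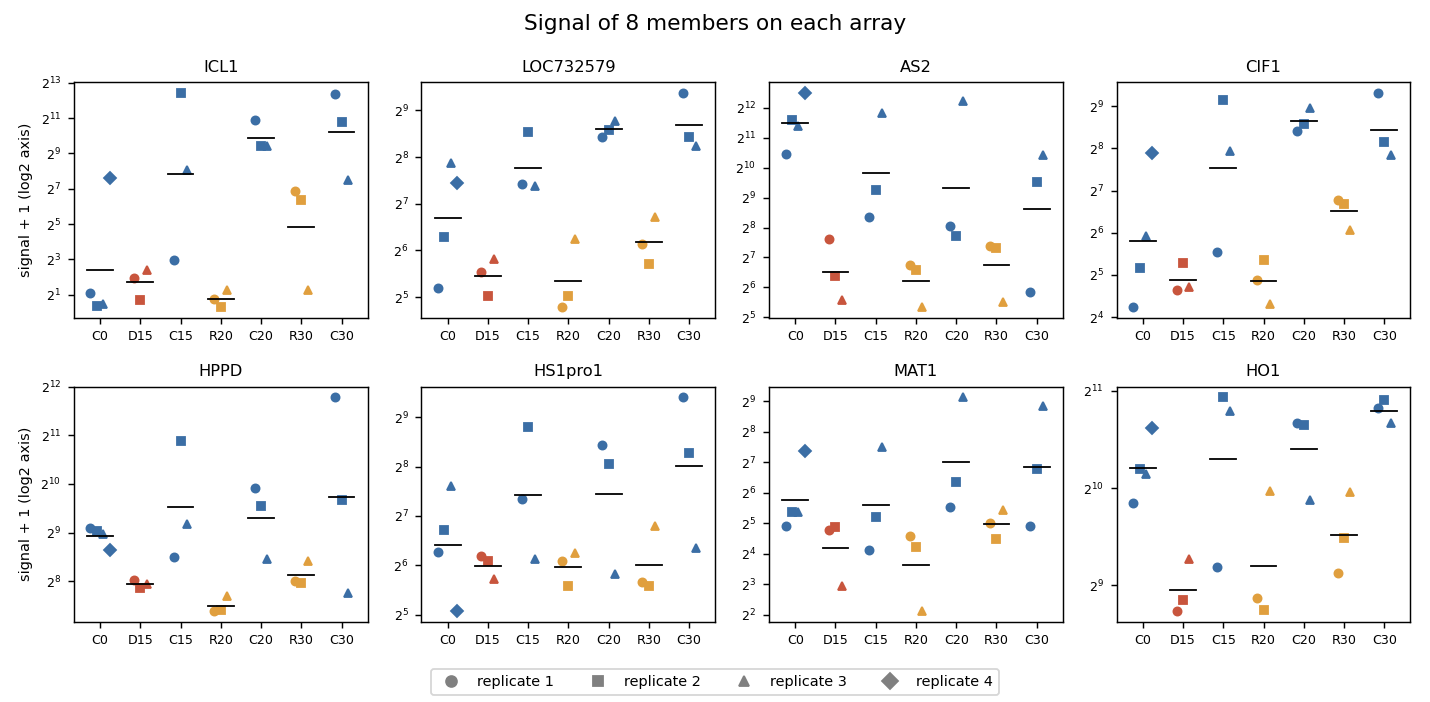
Signal + 1 on a log2 axis for 8 members, 1 panel each, with the groups from C0 to C30 on the horizontal axis. Each point is 1 array, marked by replicate number, and black lines are means of the log2 values. ICL1, LOC732579 and CIF1 keep the arms apart at every age, though ICL1 lies under the floor in D15 and on C15 replicate 1. AS2 and MAT1 are highest on replicate 3 of the later controls, and HPPD and HS1pro1 are lowest on that replicate in C20 and C30.

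HO1, heme oxygenase, which opens the heme ring toward the chromophore of phytochrome, gave 425, 459 and 617 in D15 against 582, 1956 and 1767 in C15. In R30 it gave 556, 717 and 991, against 1815, 1912 and 1622 in C30. The R30 arrays lay apart from C30, while D15 overlapped C15 through C15 replicate 1 and R20 overlapped C20 through C20 replicate 3. The differences were -1.35, -1.20 and -1.28 ± 0.41 (SE). Of the other 4 tested genes of tetrapyrrole synthesis and heme breakdown none was called in R20. The median differences over all 5, HO1 included, were 0.57, 0.43 and -0.02.

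HPPD, 4-hydroxyphenylpyruvate dioxygenase, takes tyrosine's breakdown product to homogentisate, the precursor of tocopherol and plastoquinone, and was measured by 3 members. Its best ranked probe set (rank 58) gave 260, 233 and 246 in D15 against 359, 1872 and 579 in C15. In R20 it gave 166, 169 and 205, against 961, 747 and 350 in C20. In R30 it gave 255, 250 and 341, against 3518, 808 and 215 in C30. The treated arrays were close together and the controls were not, and C30 replicate 3 lay below every R30 array. For the third HPPD probe set (rank 95) R30 minus C30 was -1.31, and 0.17 without C30 replicate 1.

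CYP83D1, a cytochrome P450, gave 231, 198 and 587 in D15 against 396, 1414 and 994 in C15, and its differences were -1.45, -1.68 and -1.28 ± 0.49 (SE). LOC100799906, listed as CYP78A3, another P450, gave 855, 1546 and 3466 in R30 against 1944, 7554 and 5153 in C30, with overlap. PHT1-8, a phosphate transporter, was faint, at 13.4, 20.2 and 14.8 in R30 against 22.8, 48.3 and 79.7 in C30. It was at least 1.64-fold lower in D15 and at least 2.28-fold lower in R20. Of the other 10 tested phosphate genes 1 was called lower in R20, PHR33 (all tested: 12.3% lower). It gave 56.0, 69.7 and 9.95 against 138, 181 and 217 in C20 (-2.32 ± 0.59 SE, limma adjusted p = 0.0129). Without C20 replicate 2 or R20 replicate 3, and with the R20 and C20 arrays alone, it was not called (adjusted p up to 0.0906).

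HS1pro1, a homologue of a nematode resistance gene of beet, had 2 members that behaved alike. The better ranked gave 49.8, 46.6 and 111 in R30 against 678, 310 and 80.8 in C30. Treated and untreated arrays overlapped at all 3 ages, always through the replicate 3 control, and the differences were -1.43, -1.46 and -2.0 ± 0.80 (SE). The 7 function lists together hold 40 tested genes that are no members. Limma called 3 of these higher and 5 lower in R20, near the shares of all tested probe sets (7.21% higher, 12.3% lower). None of them was called in D15 and none in R30 (all tested, R30: 1.97% higher). At an unadjusted p under 0.05 there were 9 in D15, 11 in R20 and 6 in R30, against 12.3%, 36.0% and 14.9% of all tested probe sets.

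USP1 had tight replicates, with 33.3, 28.1 and 22.3 in R20 against 172, 264 and 202 in C20, and its differences were -1.04, -2.88 and -1.67 ± 0.31 (SE). J1 gave 554, 661 and 689 in R30 against 1292, 1272 and 1370 in C30, with differences of -1.74, -1.35 and -1.05 ± 0.41 (SE). Neither gene overlapped between the arms at any age. CCDA gave 196, 304 and 362 in R30 against 854, 905 and 1250 in C30, with differences of -1.68, -1.97 and -1.82 ± 0.56 (SE). SIK1 overlapped at all 3 ages and had differences of -1.04, -1.82 and -1.15 ± 0.93 (SE).

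Of the 130 genes, 112 have only a LOC symbol in the platform's annotation, and most of the highest ranks are among them. LOC100814612 (rank 2) gave 34.9, 28.8 and 38.4 in R30 against 1738, 694 and 254 in C30, with differences of -4.63, -5.77 and -4.28 ± 1.35 (SE). LOC100804390 (rank 4) gave 3.79, 1.53 and 2.09 in D15 against 32.7, 801 and 483 in C15, and was at least 13.8-fold lower. LOC100305914 (rank 6) gave 77.4, 79.9 and 152 in R30 against 1493, 1248 and 972 in C30. These 3 genes had no overlap between the arms at R30.

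LOC100812537 (rank 7) was unlike them in C0, where it gave 58.6, 283, 365 and 600, near its values in older untreated leaves. It gave 7.18, 16.2 and 16.4 in D15 against 89.5, 1047 and 601 in C15. LOC100527845 (rank 8) gave 7.66, 17.4 and 12.0 in R20 against 273, 236 and 358 in C20. LOC778065 (rank 9) gave 34.0, 9.27 and 93.5 in R20 against 1281, 1521 and 915 in C20. LOC778029 (rank 10) had controls that ran from 1250 to 1.43, so its R30 minus C30 difference of -2.76 had an SE of 1.85. It was at least 6.64-fold lower in D15 and at least 3.59-fold lower in R20, where no treated array was above the floor.

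The 5 members counted above in D15 were LOC100804390, LOC100783910, LOC100803630, LOC100306604 and LOC100819644, named here after their values were seen and picked by a contrast that the ranking used. LOC100783910 gave 77.0, 96.3 and 41.0 in D15 against 359, 2643 and 1770 in C15, and LOC100819644 gave 45.7, 39.9 and 88.5 against 178, 203 and 277. In these 5 the C15 replicate 1 value stayed above every D15 value. LOC100306598, the single member that RefSeq lists as a long non-coding RNA, gave 46.6, 39.3 and 53.4 in D15 against 70.3, 133 and 129 in C15.

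The C0 arrays were not used by the ranking, and they place both arms relative to the start of the course. Both arms are set against the same 4 C0 arrays here, so their values stand side by side as a description. The median member difference from C0 was -1.04 in D15 and 0.76 in C15 (all tested: -0.01 and 0.05). Leaving out C15 replicate 1 gave a C15 median of 1.40, and leaving out C15 replicate 2 or 3 gave 0.43 or 0.49. The median was -0.84 in R20 and 1.27 in C20 (all tested: -0.17 and 0.21). It was -0.35 in R30 and 1.40 in C30 (all tested: 0.08 and 0.05). Averaged over the 3 ages, the untreated arm stood above C0 and the treated arm below it for 107 members, both stood above for 29 and both below for 14. By more than 1 (log2), 64 members had only the untreated arm above C0, 42 had only the treated arm below, and 11 had both. The ranking set the arms apart, so a group outside it tends to fall between them by the choice of members. No share of all tested is given for these splits, so nothing is read from them.

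Limma called 4 members lower than C0 in R30 (0.441% of all tested) and 32 higher in C30 (1.35%). With single arrays left out these counts ran from 0 to 8 and from 2 to 64. Since the ranking picked members with low treated and high untreated means, these counts lean the same way by choice. The 4 in R30 were the 2 AS2 probe sets, LOC100803004 and LOC100819644. Without C0 replicate 4 the median R30 difference from C0 was 0.0035 in place of -0.35, and 64 members were called higher in C30.

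Among named members C30 by fitted value stood furthest above C0 in ICL1, LOC100784767 and LOC778065. Only 1, 1 and 2 of the 4 C0 arrays were above the floor for these genes, so neither their order nor a size is given. LOC100784767 gave 63.1, 85.2 and 163 in R30 against 524, 901 and 981 in C30, and 3.25, 0.467, 0.494 and 183 in C0. Its treated leaves were thus also above 3 of the 4 C0 arrays by R30. At the other end were AS2 (-2.88 ± 1.10 for its better ranked probe set, -2.90 ± 1.11 for the other) and LOC100803004 (-1.70 ± 0.92). Both arms lay more than 1 below C0 for 4 members: the AS2 pair, LOC778029 and LOC100803004. Both lay more than 1 above it for 5: LOC100784767, LOC100305812, LOC100499706, LOC100797018 and SIK1.

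**Figure D3:**
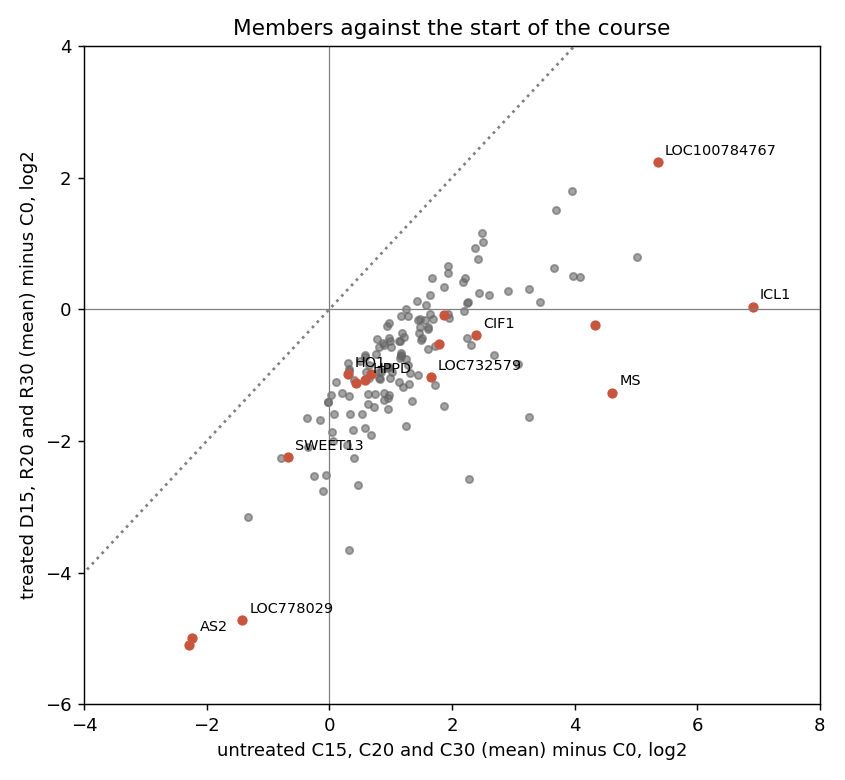
For each member, the mean of D15, R20 and R30 minus C0 (vertical axis, log2) is set against the mean of C15, C20 and C30 minus C0 (horizontal axis, log2). Each point is 1 probe set, red points are named genes, and all lie below the dotted line of equal values by the choice of members. At the lower right, above C0 on the horizontal axis and below it on the vertical axis, are 107 of the 150 points. The choice of members favours that position, so nothing is read from the count.

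In the treated arm most members had higher group means at R30 than at D15, though none was called in the fit of all arrays. R30 exceeded D15 in the group means of 140 members, by a median of 0.82 (all tested: 56.9% above, median 0.08). C30 exceeded C15 for 136 members, by a median of 0.71 (all tested: 49.0%, median -0.01). Without C15 replicate 1, C30 exceeded C15 for 91 members, by a median of 0.10 (all tested: 44.7%). R20 exceeded D15 for 91 members (all tested: 42.3%). Limma called 0 members between R30 and D15 (0% of all tested), 0 between C30 and C15 (0%) and 0 in the change of the treated minus untreated difference between D15 and R30 (0%). At an unadjusted p under 0.05 there were 24, 12 and 0, and without C15 replicate 1 the 12 became 0. The shares of all tested probe sets past that threshold are not given for these contrasts, so nothing is read from the counts. A fit of the R30 and D15 arrays alone called 15 members, all higher in R30 (0.519% of all tested), and over all tested probe sets 159 higher and 182 lower.

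Replicates of a group differed more for the members than for other probe sets. In C0, which the ranking did not use, the median SD over 4 arrays was 1.09 (log2) for members and 0.53 for all tested. It was 0.47 in D15 (all tested: 0.38) and 1.31 in C15 (0.61), 0.62 in R20 (0.57) and 0.50 in C20 (0.35), and 0.49 in R30 (0.30) and 0.70 in C30 (0.59). C0 replicate 4 held the highest C0 value for 113 of 150 members (34.6% of all tested). The median member signal was 86.0, 136, 181 and 348 on the 4 C0 arrays.

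C15 replicate 1 held the lowest C15 value for 133 members (39.3% of all tested), and for 122 it was nearer to the D15 mean than to the mean of the other C15 arrays. Its H4 signal was 5401, against 3612 and 782 on the other C15 arrays and 6059, 8575 and 7706 in D15. The part of that signal in its low member values was not tested, and neither was whether this sample's label is right. Within C20 and C30, replicate 3 was lowest at both ages for 50 members (17.8% of all tested), among them HPPD, HS1pro1 and SCOF-1. It was highest at both ages for 27 members (13.5%), and all 27 were highest on replicate 3 in C15 too (7.13%). These 27 include AS2, MAT1, WNK13, PHT1-8, SWEET13, CCDA and LOC100170711.

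**Figure D4:**
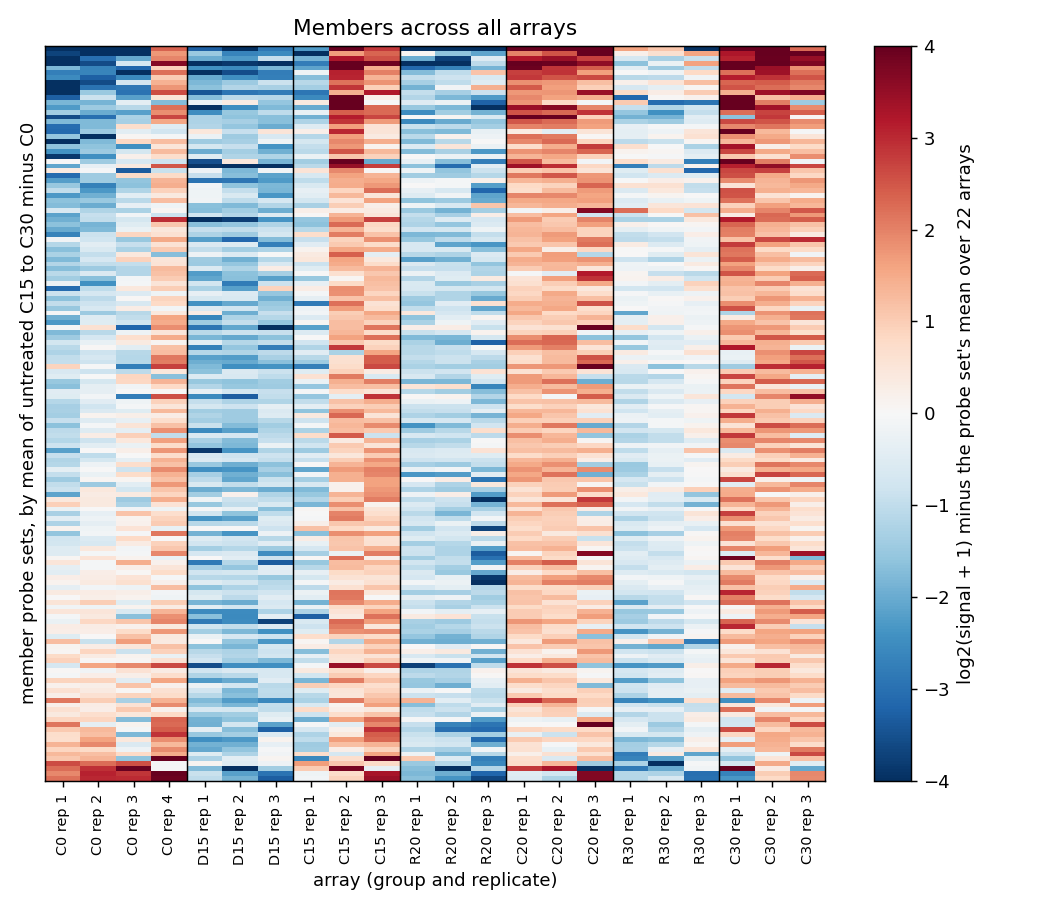
Each row is 1 member and each column 1 array; colour is log2(signal + 1) minus the row's mean over the 22 arrays, with values beyond 4 in either direction drawn as 4. Rows run from the members whose untreated arm stood furthest above C0 to those where it stood furthest below; treated columns are blue in most rows, C15 replicate 1 resembles them, and C0 replicate 4 is the reddest C0 column.

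For 18 genes more than 1 probe set is a member. Within such a gene the widest gap between probe sets at any age had a median of 0.82 (log2) and was under 1 for 13 genes. The widest, 3.50, was that of ICL1 in R20, where neither probe set's treated signal was well above the floor. The member genes have 42 further probe sets past the signal filter, which the ranking placed lower, and these belong to 33 genes. Of the 42, 33 (78.6%) were lower in the treated arm at all 3 ages, and 1 was higher at all 3. Among all tested probe sets 30.1% were lower at all 3 ages, and among ranked probe sets outside the members 22.8% were. The medians of the 42 were -1.19 in D15, -0.99 in R20 and -0.87 in R30, and limma called 1 (of LOC100797229; 0.0914% of all tested), 15 (12.3%) and 0 (0.441%) of them lower. It called 1 of the 42, a probe set of LOC100806382, higher in R20 (7.21%) and in R30 (1.97%). An unadjusted p under 0.05 was reached by 18 of the 42 in D15, 19 in R20 and 15 in R30 (all tested: 12.3%, 36.0% and 14.9%). Several of the 42, among them those of LOC100777605 and SCOF-1, carry a member's array identifier with only the suffix changed. Whether they share probes with that member was not tested, so they are not independent measurements of it. The 42 measure the same genes in the same RNA, so they are no test of the plants.

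Among the named genes of these 33, the other probe set of LOC778029 was too faint to give a direction. It gave 5.59, 31.0 and 20.3 in R30 against 1.74, 10.4 and 4.33 in C30. No D15 and no C30 array was above the floor for it, and no bound holds in R30, so no size is given. HO1's other probe set gave differences of -0.80, -2.55 and -0.39, CYP83D1's gave -0.58, -0.75 and -0.73, and SIK1's gave -0.68, -1.31 and -1.59. The 2 further probe sets of SCOF-1 gave -0.57, -1.97 and -0.89, and -0.08, -2.21 and -0.95.

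LOC100806382 went both ways. The better ranked of its 2 member probe sets gave 486, 729 and 1161 in R30 against 1398, 3150 and 1889 in C30. Another probe set that the annotation gives to this gene went the other way and gave 282, 312 and 119 in R30 against 0.872, 1.10 and 0.732 in C30. It gave 148, 219 and 267 in D15 against 44.4, 2.12 and 0.373 in C15, and 142, 151 and 81.2 in R20 against 0.288, 0.229 and 0.436 in C20. It was thus at least 9.07-fold higher in R20 and at least 12.8-fold higher in R30, and C15 replicate 1 again lay on the treated side. The gene's remaining probe set past the filter gave differences of -0.95, -3.36 and 0.16. The histone H4 probe set carries the same cluster number in its array identifier as the deviating probe set and was also higher in D15 than in any C15 array. Which transcript the deviating probe set reports was not tested, and the gene's direction is uncertain.

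**Figure D5:**
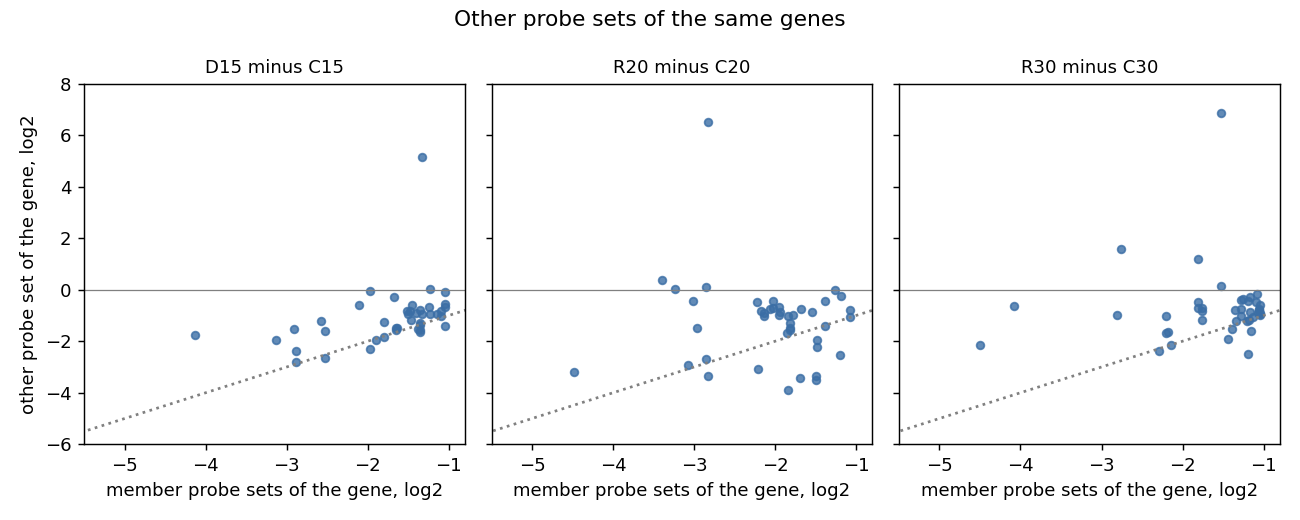
Treated minus untreated difference (log2) of each further probe set of a member gene that passed the signal filter (vertical axis) against the mean difference of the gene's members (horizontal axis), 1 panel per age, bud removal or regrowth minus the control of that age. Of 42 probe sets 33 were below 0 at all 3 ages; the highest point in each panel is the LOC100806382 probe set that was higher in treated leaves.

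The member genes are spread over all 20 chromosomes of the RefSeq assembly Glycine_max_v4.0, with 1 to 14 genes on each. In its gene order 3 pairs of members are near neighbours. LOC100793096 and LOC100499706 on chromosome 7 have 0 coding genes between them, LOC100527845 and LOC100301904 on chromosome 20 have 1, and LOC100306714 and LOC100801375 on chromosome 13 have 4. The adjacent pair gave 982, 1075 and 1420 (LOC100793096) and 1593, 2050 and 3182 (LOC100499706) in R30, against 3363, 2337 and 2038 and 6988, 7481 and 5857 in C30. Neither gene overlapped between the arms there. Coordinates are not given, since the array's own build is not stated.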

How the data were processed

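Leaf RNA was biotin-labelled and hybridised to 1 Affymetrix array per sample, per the labels' protocols. The deposited values are signal intensity per probe set on a linear scale, which the authors had scaled so that the mean after trimming 2% at each end was 125.009 to 125.015 on every array. For the software behind the summary per probe set: not given in the sources used here. No other normalization was applied. Groups came from the sample titles, and gene symbols from the platform's annotation. Log2 values were computed from the deposited signals as log2(signal + 1). The members, gene lists and tests were chosen with earlier results of these data known.

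Probe sets with a signal over 22 on at least 3 arrays were tested with limma 3.58.1 in R 4.3.3, with 1 coefficient for each of 7 groups, a variance trend and Benjamini-Hochberg adjustment over 30645 probe sets at 0.05. A standard error (SE) is limma's, pooled over groups. The fit was tested on simulated data. Tables and figures were made with Python 3.11.15, pandas 2.3.3, numpy 2.4.6 and matplotlib 3.10.9. Where every array of a group lay at or under the floor, only a bound was given. Array number limits the precision, and p-values measure only the spread between these samples. No pair of arrays correlated above 0.956 over probe sets, so none was counted as a repeat.

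Named members were those at ranks 1 to 10, those with a symbol other than a LOC identifier, the 3 just inside and the 3 just outside the list, and the 3 highest and 3 lowest in C30 minus C0. Members that RefSeq names otherwise, neighbours and members counted in groups of 5 or fewer were named after their values were seen. Cell type markers were matched by symbol. Gene titles, promoter and protein sequences were not used here, so the planned function lists by title, promoter motifs and closest duplicates were not run. Lists of related genes by symbol took their place. Alternatives were another pseudocount, median centring, quantile normalization, no filter, no variance trend, the replicate number as a block, only the compared groups' arrays, and each array left out in turn.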

Additional observations from a re-analysis of the deposited data

Results flagged for a closer look

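Among named members, 1 of the 4 C0 arrays stood far from the others for 2 probe sets, and both times it was replicate 4. ICL1 (its first probe set) had a signal of 194 on C0 replicate 4 and 1.14, 0.318 and 0.417 on the others. LOC100803004 had 73.1 on that array and 474, 362 and 463 on the others, so the direction was the opposite. Over all members, 11 (7.33%) had such a lone C0 array by Dixon's criterion, against 6.17% of all tested probe sets, and C0 replicate 4 was the high array for 7 of the 11. Chance alone gives about 1 in 20 groups.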

How the results depend on the processing

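The 3 median same-age differences stayed below 0 under each alternative run. In R20 against C20 the median was -1.73 with a pseudocount of 16 and -1.57 with median centring, and with arrays left out in turn the medians ran from -2.48 to -1.47 (D15 against C15), -2.17 to -1.95 (R20 against C20) and -1.84 to -1.57 (R30 against C30). Of 140 values of the smallest difference, for 35 named probe sets under 4 settings, 139 kept their direction. The exception was the third HPPD probe set, at 0.17 without C30 replicate 1. The ranking used these same differences, so the kept direction of medians and named probe sets follows largely from the choice of members. The size held less well: leaving out 1 array shrank the smallest difference by over 1.5 times for 17 of the 35, among them WNK13 (-0.07), SCOF-1 (-0.25), SIK1 (-0.37), MAT1 (-0.46) and LOC778029 (-0.83). The median R30 minus C0 difference ran from -0.55 to 0.0035 with an array left out, highest without C0 replicate 4. The rule picked 121 to 146 of the 150 members again with an array left out, fewest without C30 replicate 1, and 122 with median centring.

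Counts of calls moved more. Members called lower in D15 against C15 (5) were 2 with median centring, 2 without a variance trend, 0 with the arrays of those groups alone, and 0 to 72 with an array left out, 72 being without C15 replicate 1. It was 0 without C15 replicate 2 or 3 or D15 replicate 1 or 2, 1 without R30 replicate 2, 2 without replicate 1 or 2 of C20 or R20, R30 replicate 1 or C0 replicate 2, 3 without C30 replicate 2 or D15 replicate 3, 8 without R20 replicate 3 or C0 replicate 1 and 15 without C0 replicate 4. In R20 against C20 (75) there were 43 with median centring and 32 to 85 with an array left out, with 32 without C20 replicate 2, 44 without C20 replicate 1 and 50 without R20 replicate 3. In R30 against C30 (16) there were 35 with those groups alone and 1 to 26 with an array left out, with 1 without R30 replicate 1, 2 without R30 replicate 2, 3 without C30 replicate 2, 7 without C30 replicate 3 and 26 without C15 replicate 1. In C30 against C0 (32) there were 0 with those groups alone and 2 to 64, with 2 without C0 replicate 1 or 2, 3 without C30 replicate 2, 10 without C30 replicate 1, 20 without C30 replicate 3, 21 without C0 replicate 3 and 64 without C0 replicate 4. In R30 against C0 (4) there were 2 without a variance trend and 0 to 8, with 0 without R30 replicate 1 or 2, 1 without C0 replicate 1, 2 or 3, D15 replicate 2 or R20 replicate 2, 2 without C15 replicate 2, D15 replicate 1 or 3, C20 replicate 1 or R20 replicate 1, and 8 without C15 replicate 1. Without C0 replicate 4 there were 6, 4 higher and 2 lower. In R30 against D15 (0) there were 15 with those groups alone and 0 to 0 with an array left out. With C15 replicate 1 and R20 replicate 3 both left out, chosen after seeing the data, the calls were 87 in D15 against C15, 37 in R30 against C30, 57 in C30 against C0 and 9 in R30 against C0, and 142 members showed no overlap in D15 and 94 at all 3 ages. With an array left out the members without overlap numbered 79 to 142 (D15), 117 to 143 (R20), 105 to 125 (R30) and 44 to 85 (all 3 ages). Fewer arrays make a lack of overlap easier to reach. The causes were not tested.

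Samples with the same replicate number did not all deviate together (correlations -0.19 to 0.32, and 3 of 9 pairs best with their own number), so the numbers are not taken to pair the samples. With the replicate block the calls were 25 in D15 against C15, 25 in R30 against C30, 69 in C30 against C0, 8 in R30 against C0 (6 higher, 2 lower) and 1 in R30 against D15. Signal near the floor limits, among others, ICL1, MS, LOC100804390, LOC778029, SWEET13, PHT1-8, BFT and LOC100170711. Identity to closest duplicates and promoter motifs were not run.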
